A study of Mus musculus with 5 samples.

Results

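Expression of 10 transcription factors that are shared by most endothelial cells was examined in normal and tumor endothelium of the mouse liver. The factors were Erg, Fli1 and Ets1 of the ETS family, Sox7, Sox17 and Sox18 of the SOXF group, the Krüppel-like factors Klf2 and Klf4, and Tal1 and Lmo2 of the SCL complex. They were chosen by name, and every array probe annotated with 1 of these names was taken, which gave 15 probes for the 10 genes out of 56605 probes and 37074 gene names on the array. Liver sinusoidal endothelial cells (LSECs) of C57BL/6 mice, tumor endothelial cells (TECs) from hepatomas grown from HAK-1B, Hepa1-6 or KYN-2 cells, and cultured Hepa1-6 cancer cells (strain C57L) were each measured on 1 array, with no drug or microRNA treatment among these samples. The HAK-1B and KYN-2 lines come from human hepatomas and Hepa1-6 from a mouse one, and each was implanted into the liver lobe of mice. The labels give C57BL/6 for all 3 TEC samples, whereas the methods name both C57BL/6 and nude mice as hosts and, in the text on the arrays, Huh-7 in place of HAK-1B. Female mice of 6 weeks were used per the methods, and TECs were taken with CD31 beads after collagenase digestion, so that other CD31-positive cells can be carried along. Whether animals were pooled is not stated in the sources used here. With 1 array per condition there was no replicate check of a single TEC, and precision was limited by the number of arrays. Where 3 TEC values are given in a row, they follow the order HAK-1B, Hepa1-6, KYN-2.

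ETS factors bind the promoters and enhancers of most genes that mark endothelial cells, and ERG and FLI1 are known to keep endothelial identity, junctions and vessel quiescence in the adult. SOXF factors act in arterial and lymphatic specification and share many enhancers with ETS factors. KLF2 and KLF4 are induced by laminar shear stress and switch on anti-thrombotic and anti-inflammatory genes, and KLF2 is known for its high level in the sinusoidal endothelium of the liver. TAL1, also called SCL, and its bridging partner LMO2 form a DNA-binding complex with E proteins, LDB1 and GATA factors in endothelial and blood cells.

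All 10 genes were well above background, by the scanner software's flag, on the LSEC array and on all 3 TEC arrays. Only Ets1, Klf2 and Klf4 were well above background in the cultured Hepa1-6 cells. Erg, Ets1 and Sox18 were at least 2-fold lower than LSEC in each TEC, as were 11.0% of 19310 genes, though Ets1 was at a log2 ratio of only -0.91 in KYN-2 TECs when arrays were scaled to their 75th percentile. Klf4 and the brighter of 2 Lmo2 probes stayed within 2-fold of LSEC in each TEC, and Fli1 and Tal1 did so in HAK-1B and KYN-2 TECs. In bulk RNA, fewer endothelial cells in a sample and less RNA of a gene per endothelial cell cannot be told apart, and this holds for each value that follows.

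**Figure D1:**
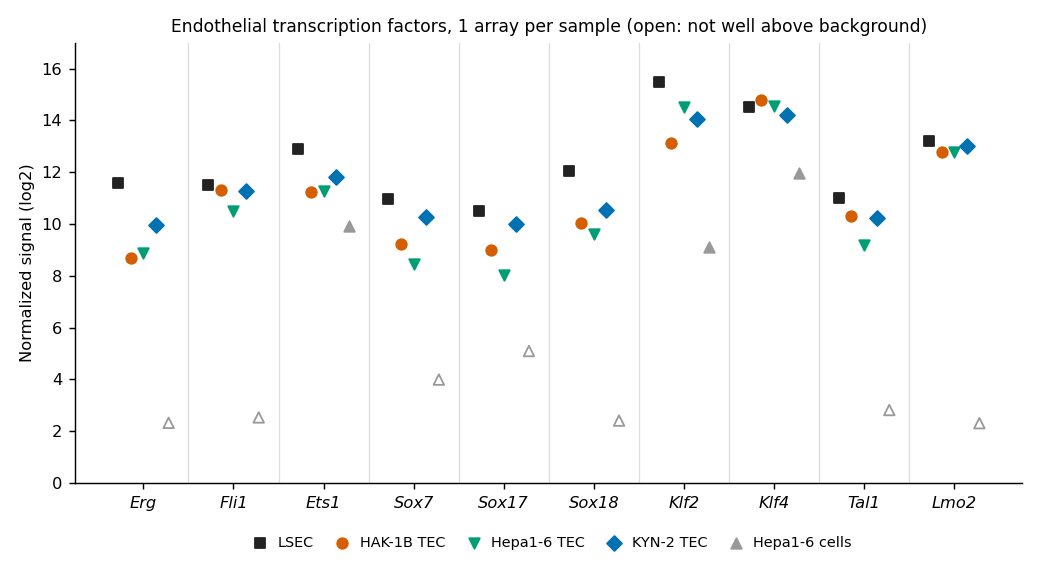
Normalized signal (log2) of the 10 transcription factors on the 5 arrays, 1 point per array and gene, with open symbols for signals not well above background. Klf2 lay at 15.48 in LSEC and at 13.14 in HAK-1B TECs, while the 4 endothelial points of Klf4 lay between 14.20 and 14.79.

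Erg encodes an ETS factor that is found in nearly all endothelial cells. Its probe, at chr16:95582331-95582390 on the minus strand (positions as given in the design of the array, on mouse build mm9), had a log2 signal of 11.57 in LSECs, 8.70 in HAK-1B TECs, 8.87 in Hepa1-6 TECs, 9.95 in KYN-2 TECs and 2.32 in cultured Hepa1-6 cells. LSEC was the highest array, the KYN-2 TEC array was the highest of the TECs, and the cultured cells were not well above background. Erg was thus 7.33-fold lower than LSEC in HAK-1B TECs, 6.52-fold lower in Hepa1-6 TECs and 3.07-fold lower in KYN-2 TECs. It was at least 48.8-fold lower in cultured cells, a bound in which a signal not well above background was set to the higher of its own value and the lowest signal well above background on that array. Among all genes measured in each comparison, 3.6%, 4.1% and 9.1% had a lower ratio to LSEC than Erg.

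Fli1, the ETS factor closest to Erg in sequence, lay nearer to LSEC in the TECs than Erg did. Its log2 signal (chr9:32229857-32229916, minus strand) was 11.51 in LSECs, 11.33 in HAK-1B TECs, 10.51 in Hepa1-6 TECs, 11.27 in KYN-2 TECs and 2.53 in cultured cells. The HAK-1B and KYN-2 TEC arrays lay close to LSEC, and the Hepa1-6 TEC array lay 2.01-fold below it. The cultured cells were not well above background and were at least 47.0-fold below LSEC. FLI1 is also made by blood cells, and the markers of these cells are given further on.

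Ets1, which encodes the founding ETS factor and is also high in lymphocytes, had 3 probes. The probe with the highest mean signal (A_52_P232830, chr9:32561826-32561885, plus strand) gave a log2 signal of 12.91 in LSECs, 11.22 in HAK-1B TECs, 11.26 in Hepa1-6 TECs, 11.81 in KYN-2 TECs and 9.92 in cultured cells. The TEC arrays were close to each other and all lay below LSEC, by 3.23-fold, 3.14-fold and 2.15-fold in the same order. Unlike Erg and Fli1, Ets1 was well above background in the cultured cancer cells. These cells were 7.96-fold below LSEC. The second probe (A_52_P194250, chr9:32564860-32564919) gave larger differences, with log2 ratios to LSEC of -2.25, -2.53 and -1.61. The third (A_55_P2717993, chr9:32537296-32537355) gave -1.84, -3.35 and -1.51. Its log2 signals of 7.31 in HAK-1B and 5.80 in Hepa1-6 TECs were below that of 7.42 in the cultured cells, and that of 7.64 in KYN-2 TECs was above it. The probes of Ets1 thus had the same direction in each TEC and differed in size.

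**Figure D2:**
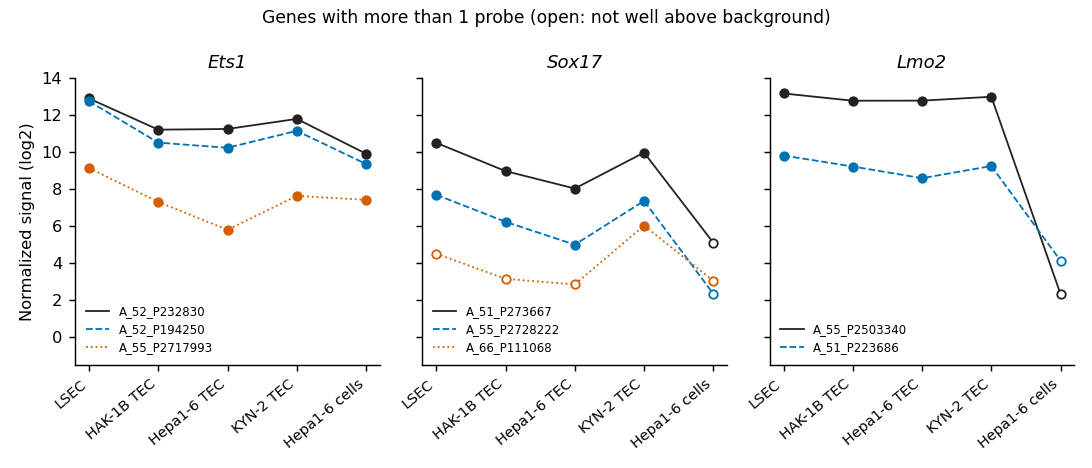
Normalized signal (log2) of each probe of Ets1, Sox17 and Lmo2 on the 5 arrays, 1 line per probe, with open symbols for signals not well above background. The probes of 1 gene are to be read for the shape of the line, since levels of different probes cannot be compared. The probe A_66_P111068 of Sox17 was well above background only in KYN-2 TECs, at 6.03.

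The SOXF genes had their lowest TEC values in Hepa1-6 tumors. Sox7 (chr14:64569419-64569478, plus strand) had a log2 signal of 10.95 in LSECs, 9.22 in HAK-1B TECs, 8.47 in Hepa1-6 TECs, 10.27 in KYN-2 TECs and 3.99 in cultured cells. The KYN-2 TEC array was near LSEC, at 1.61-fold below, while the HAK-1B and Hepa1-6 TEC arrays were 3.34-fold and 5.61-fold below. SOX7 acts early in the endothelial lineage. The cultured cells were not well above background, at least 31.8-fold below LSEC.

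Sox17, a factor of arterial endothelium, was read by 3 probes. The probe with the highest mean signal (A_51_P273667, chr1:4481890-4481949, minus strand) gave a log2 signal of 10.51 in LSECs, 8.98 in HAK-1B TECs, 8.04 in Hepa1-6 TECs, 9.98 in KYN-2 TECs and 5.10 in cultured cells, which were not well above background. KYN-2 TECs were again nearest to LSEC, at 1.44-fold below, followed by HAK-1B TECs at 2.89-fold and Hepa1-6 TECs at 5.56-fold. A second probe (A_55_P2728222) of the same strand spanned 491 bases of the genome at chr1:4482700-4483190 and gave log2 ratios to LSEC of -1.46, -2.70 and -0.33. The third (A_66_P111068, chr1:4487611-4487670) was designed on the plus strand, opposite to the other Sox17 probes, and the transcript it reads was not established here. It was not well above background on the other 4 arrays and had a log2 signal of 6.03 in KYN-2 TECs.

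Sox18, which acts in lymphatic and blood vessel formation, had a log2 signal (chr2:181404789-181404848, minus strand) of 12.04 in LSECs, 10.05 in HAK-1B TECs, 9.60 in Hepa1-6 TECs, 10.53 in KYN-2 TECs and 2.41 in cultured cells. Every TEC array was well below LSEC, by 3.98-fold, 5.45-fold and 2.86-fold, and the TEC arrays were closer to each other than to LSEC. The cultured cells were at least 67.7-fold below LSEC. Sox18 was therefore the SOXF gene with the lowest mean log2 ratio, -1.98 over the 3 TECs (SD 0.47, n = 3 arrays), against -1.64 (SD 0.90) for Sox7 and -1.51 (SD 0.97) for Sox17.

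The Krüppel-like factors gave unlike values. Klf2 (chr8:74845137-74845196, plus strand) had a log2 signal of 15.48 in LSECs, 13.14 in HAK-1B TECs, 14.51 in Hepa1-6 TECs, 14.05 in KYN-2 TECs and 9.11 in cultured cells. HAK-1B TECs were the lowest of the TECs, at 5.06-fold below LSEC, while KYN-2 TECs were 2.70-fold and Hepa1-6 TECs 1.96-fold below. This order of the TECs differed from that of the SOXF genes, for which Hepa1-6 TECs were the lowest. Klf2 was well above background in the cultured cells, where it was 83.0-fold below LSEC.

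Klf4 (chr4:55540833-55540892, minus strand) had a log2 signal of 14.52 in LSECs, 14.79 in HAK-1B TECs, 14.56 in Hepa1-6 TECs, 14.20 in KYN-2 TECs and 11.95 in cultured cells. Among the TECs, HAK-1B was the highest and KYN-2 the lowest under each scaling run, but the place of LSEC changed and no difference was tested. The TECs lay on both sides of LSEC with log2 ratios of 0.27, 0.03 and -0.32. The sign of these ratios depended on the scaling, since scaling to the 75th percentile of each array gave 0.67, 0.29 and 0.15 and normexp background correction gave -0.05 in Hepa1-6 TECs. Klf4 was 5.95-fold lower in cultured cells than in LSECs.

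In endothelial cells the kinase ERK5 and MEF2 factors are known to switch on KLF2, and MEF2 binds a site in its proximal promoter. The first 250 bases before the start of Klf2 and of Klf4 are shown, and whether these sequences bear on the ratios to LSEC was not tested. Capitals mark matches to the MEF2 motif CTANNNNTAG, which reads the same on both strands. The sequences are RefSeq promoters of build GRCm38.p6, 5′ to 3′ on the strand of the gene, at chr8:72318812-72319061 (plus strand) for Klf2 and chr4:55532476-55532725 (minus strand) for Klf4.
Klf2: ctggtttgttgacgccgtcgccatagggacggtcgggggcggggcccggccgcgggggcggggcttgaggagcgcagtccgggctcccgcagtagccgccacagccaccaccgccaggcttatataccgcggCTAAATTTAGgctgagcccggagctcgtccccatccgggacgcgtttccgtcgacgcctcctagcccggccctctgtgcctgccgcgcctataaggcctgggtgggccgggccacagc
Klf4: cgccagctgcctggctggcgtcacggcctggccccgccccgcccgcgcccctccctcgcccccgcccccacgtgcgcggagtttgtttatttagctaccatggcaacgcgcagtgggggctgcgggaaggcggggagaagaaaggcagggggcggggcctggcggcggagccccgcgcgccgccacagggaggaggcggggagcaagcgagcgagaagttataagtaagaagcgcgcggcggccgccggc
The Klf2 promoter held 1 match, CTAAATTTAG, from 118 to 109 bases before the start. The Klf4 window held none, which says only that these letters are not in this window. Of 32851 promoters of the same length, 1052 (3.20%) held the motif. Promoters of Erg (3) and Tal1 (2) were also in the table, and none of these held it. The match is a description of the sequence and not a measured site.

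Tal1 (chr4:114744219-114744278, plus strand) encodes the basic helix-loop-helix factor of the SCL complex and had a log2 signal of 11.01 in LSECs, 10.32 in HAK-1B TECs, 9.18 in Hepa1-6 TECs, 10.22 in KYN-2 TECs and 2.82 in cultured cells. The Hepa1-6 TEC array stood below the other TECs, at 3.56-fold below LSEC against 1.62-fold in HAK-1B and 1.74-fold in KYN-2 TECs. The cultured cells were at least 33.2-fold below LSEC. Lmo2, its LIM-only partner, had 2 probes. The one with the higher mean signal (A_55_P2503340, chr2:103821857-103821916, plus strand) gave a log2 signal of 13.19 in LSECs, 12.79 in HAK-1B TECs, 12.80 in Hepa1-6 TECs, 13.01 in KYN-2 TECs and 2.31 in cultured cells. All endothelial arrays were close together, with TECs 1.31-fold, 1.31-fold and 1.13-fold below LSEC, whereas the cultured cells were at least 149.6-fold below it. The sign in KYN-2 TECs turned with the scaling, from a log2 ratio of -0.18 to 0.04 at the 75th percentile. The other Lmo2 probe (A_51_P223686), which spanned 4714 bases at chr2:103816341-103821054, gave log2 ratios of -0.60, -1.23 and -0.57.

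The rule of size used in the methods asks for a ratio of 1.5 or more with a Z-score of 2 or more, or a ratio of 0.66 or less with a Z-score of -2 or less, over all probes kept in the comparison. It called 1 of the 10 genes, Erg, lower in HAK-1B TECs, where 3.94% of 20298 genes were called lower. By the probes that stand for the genes, none was called lower in Hepa1-6 TECs (2.04% of 26322 genes) or in KYN-2 TECs (2.88% of 19819 genes). None was called higher in any TEC, where 3.11%, 4.54% and 3.64% of genes were. The Ets1 probe A_55_P2717993, which does not stand for its gene, passed as lower in Hepa1-6 TECs at a Z-score of -2.03. The Z-score required about 6.91-fold, 9.84-fold and 6.77-fold lower signal for a call in the same order, and Erg, at a Z-score of -2.06 in HAK-1B TECs, was just past it. Erg was no longer called with quantile normalization by pair, the scaling that the methods describe (3.91% of all genes called lower), or at the 75th percentile of each array (4.31%). With normexp background correction, 3 genes were called lower in HAK-1B TECs, against 4.03% of all genes, 4 in Hepa1-6 TECs, against 2.89%, and 0 in KYN-2 TECs, against 2.92%. Without the Z-score 7, 8 and 6 passed, against 26.9%, 30.9% and 28.5%. At a fixed 2-fold difference, which is a description and not a test, 6 genes were lower in HAK-1B TECs (Erg, Ets1, Sox7, Sox17, Sox18 and Klf2), against 18.0% of all genes. In Hepa1-6 TECs 7 were lower (Erg, Fli1, Ets1, Sox7, Sox17, Sox18 and Tal1), against 22.1%, and Fli1 dropped out with quantile normalization by pair, at a log2 ratio of -0.97. In KYN-2 TECs 4 were lower (Erg, Ets1, Sox18 and Klf2), against 18.3%, and 2 at the 75th percentile, where Ets1 and Klf2 dropped out at -0.91 and -0.85 and 17.7% of all genes were lower. No gene of the 10 was at least 2-fold higher in a TEC, against 17.4%, 25.0% and 16.8% of all genes. The median log2 ratio of the 10 genes was -1.61, -1.74 and -0.74, beside 0.00, 0.09 and -0.05 over all genes measured. These comparisons share the 1 LSEC array, so that a high or low value on that array enters each of them. All TECs were hybridized on 1 slide and LSEC on a different one, and an effect of slide cannot be told apart from that of the tumor.

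**Figure D3:**
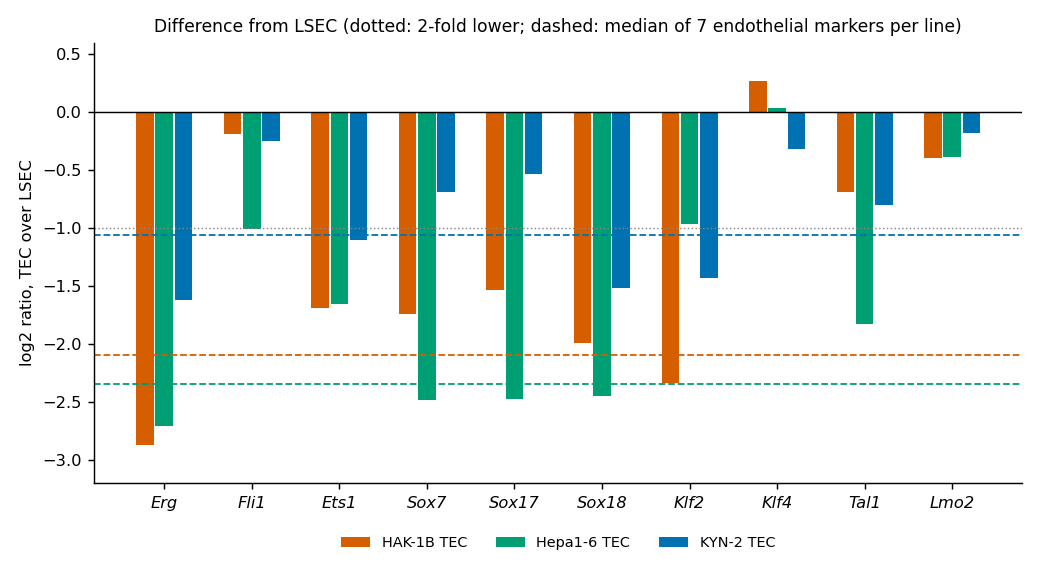
Log2 ratio of each TEC array over the LSEC array (bars, 1 per tumor line) for the 10 transcription factors. The dotted line marks 2-fold lower and the dashed lines mark the median ratio of 7 endothelial markers, -2.10 in HAK-1B, -2.34 in Hepa1-6 and -1.06 in KYN-2 TECs. Fli1, Klf4, Tal1 and Lmo2 lay above the dashed line of each tumor line, and Erg lay below it.

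A fit of the 3 TEC arrays against the LSEC array over 42113 probes with limma, which takes the TECs as 3 samples of 1 group and assumes that LSECs vary as they do, had 2 residual degrees of freedom. No probe passed an adjusted p of 0.05 after Benjamini-Hochberg adjustment (0%), and 3583 probes (8.51%) had an unadjusted p under 0.05. Of the 15 probes of the transcription factors, none passed and 4 had an unadjusted p under 0.05. These were the probe of Erg, with a mean log2 ratio of -2.40 ± 0.71 (limma SE, n = 3 TECs and 1 LSEC; limma adjusted p = 0.521), that of Sox18, with -1.98 ± 0.60 (adjusted p = 0.522), and the probes A_52_P194250 and A_52_P232830 of Ets1, with -2.13 ± 0.60 (adjusted p = 0.508) and -1.48 ± 0.54 (adjusted p = 0.578). The difference of Klf2, -1.58 ± 0.72 (adjusted p = 0.661), and that of Klf4, -0.01 ± 0.53 (adjusted p = 0.997), did not pass either. By this test no difference of the TECs from LSEC passed against the spread between the TECs, which does not show that the values were the same.

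The TECs were then compared with each other by the probes that stand for the genes. KYN-2 TECs were at least 2-fold above HAK-1B TECs for 3 of the 10 genes, Erg (2.39-fold), Sox7 (2.07-fold) and Sox17, which was just past 2-fold, against 10.5% of all genes. They were at least 2-fold above Hepa1-6 TECs for 4, Erg (2.12-fold), Sox7 (3.48-fold), Sox17 (3.85-fold) and Tal1 (2.05-fold), against 17.5%. HAK-1B TECs were at least 2-fold above Hepa1-6 TECs for Tal1 alone (2.20-fold), against 18.7%, and at least 2-fold below them for Klf2 alone, against 21.9%. Probes that do not stand for their genes added to this. The Ets1 probe A_55_P2717993 was 2.85-fold higher in HAK-1B TECs and 3.58-fold higher in KYN-2 TECs than in Hepa1-6 TECs. The Sox17 probe A_55_P2728222 was 2.36-fold higher in HAK-1B than in Hepa1-6 TECs. Each of these pairs is 1 array against 1 array with no test. The median log2 difference of the endothelial markers between the same arrays was 0.89, 1.28 and 0.67, and whether the share of endothelial cells enters these differences was not tested.

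Against the cultured Hepa1-6 cells, which are not endothelial, the contrast with LSEC was much larger. All 10 genes were at least 2-fold lower in these cells than in LSECs, against 30.9% of all genes, and 7 of them (Erg, Fli1, Sox7, Sox18, Klf2, Tal1 and Lmo2) passed the rule of size, against 4.81% of 19921 genes. A call needed 51.2-fold, more than the bounds given above for Erg, Fli1, Sox7 and Tal1, so that these calls rest on cultured-cell signals not well above background. With presence required on both arrays 1 call was left. The share of all genes called with that filter is not given here, so this count cannot be set against it. The distance of the TECs from the cultured cells depended on the gene. In Hepa1-6 TECs, whose tumors grew from this line, Erg was at least 7.49-fold, Fli1 at least 23.4-fold, Sox7 at least 5.67-fold, Sox17 at least 4.21-fold and Sox18 at least 12.4-fold above them. Tal1 was at least 9.32-fold, the brighter Lmo2 probe at least 114.2-fold and Klf2 42.5-fold above them. Klf4 was 6.09-fold above them, and Ets1 was only 2.53-fold above by the probe with the highest mean signal and below them by the probe A_55_P2717993. By the probes that stand for the genes, the contrast of LSECs with cultured cells was smallest for Klf4 and next for Ets1, while the Ets1 probe A_55_P2717993 gave 3.30-fold.

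The paper gives a purity of the isolated TECs from fluorescence-activated cell sorting, a measure separate from these arrays. Here the purity of the samples was read from markers of endothelial and other cell types. The 7 endothelial markers (Pecam1, Cdh5, Kdr, Tek, Tie1, Emcn and Egfl7) were all well above background in LSECs and in each TEC, and only Egfl7 was in the cultured cells. Their summed signal on the linear scale was 299705 in LSECs, 46044 in HAK-1B TECs, 47124 in Hepa1-6 TECs, 85224 in KYN-2 TECs and 2936 in cultured cells, with the highest signal on every array at the probe of Egfl7, a secreted protein of endothelial cells. Signals of different probes are not comparable as RNA amounts, so that here and in the lists that follow a leading gene is only the one with the highest probe signal, and a sum can rest largely on it. Of the 7 markers, 6, 7 and 4 were at least 2-fold lower in the TECs and 0, 0 and 0 at least 2-fold higher. Cdh5, Kdr, Tek and Egfl7 were at least 2-fold lower in each TEC, and Pecam1, Tie1 and Emcn were not. In sum and in median, the endothelial markers of the TEC samples were therefore lower than in LSECs, together with most of the transcription factors. Set against the median ratio of these markers in the same comparison, Erg was at -0.78, -0.36 and -0.56 on the log2 scale, and Sox18 was at 0.10, -0.10 and -0.46. Klf2 was at -0.24, 1.38 and -0.38. Fli1 was at 1.91, 1.34 and 0.81, Lmo2 at 1.70, 1.95 and 0.88, and Klf4 at 2.37, 2.38 and 0.74. On this scale, by the probes that stand for the genes, none of the 10 was at least 2-fold lower in any TEC, against 2.89%, 1.92% and 5.95% of all genes. The Ets1 probe A_55_P2717993, which does not stand for its gene, was just past 2-fold lower in Hepa1-6 TECs. Its log2 ratio to LSEC there was -3.35, against a marker median of -2.34. The scale raises every gene alike, so that the median of all genes stood at 2.09, 2.43 and 1.01. At least 2-fold higher were 4 genes in HAK-1B TECs (Fli1, Klf4, Tal1 and Lmo2), 4 in Hepa1-6 TECs (Fli1, Klf2, Klf4 and Lmo2) and 0 in KYN-2 TECs, against 83.6%, 83.6% and 50.5% of all genes. The scale was added after the values had been seen, and the part of endothelial purity in the differences was not tested.

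Because Fli1, Ets1, Klf2, Klf4, Tal1 and Lmo2 are also expressed in blood cells, markers of these cells were read beside them. Of 19 leukocyte markers on the array, 19 were well above background in LSECs, 19 in HAK-1B TECs, 19 in Hepa1-6 TECs and 18 in KYN-2 TECs, and 7 in cultured cells. Their summed signal was 356932, 549507, 232239, 282174 and 46256 in this order of samples, and the highest probe signal was that of Csf1r, the receptor of the macrophage growth factor, except in the cultured cells (Csf3r). Their median log2 ratio to LSEC was 0.44 in HAK-1B TECs, -0.88 in Hepa1-6 TECs and -0.01 in KYN-2 TECs, the last of which turned to 0.41 at the 75th percentile. Of these markers 2, 8 and 4 were at least 2-fold lower in the TECs and 5, 5 and 5 at least 2-fold higher. The largest mean log2 ratios in size were those of the neutrophil proteins S100a8 and S100a9, at 4.34 and 4.24, and of Coro1a, at 2.30, while Itgam, named after its values were seen, was at -1.37. Leukocyte markers were thus measured in the LSEC sample as well as in the TEC samples, and their part in the values of Fli1, Lmo2 and Klf4 was not tested.

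Markers of red cells and platelets, in whose precursors TAL1 and LMO2 act, were read in the same way. Of 12 on the array, 11 were well above background in LSECs, 10 in HAK-1B TECs, 11 in Hepa1-6 TECs, 11 in KYN-2 TECs and 3 in cultured cells. The summed signal was 295523 in LSECs, 45434 in HAK-1B TECs, 100728 in Hepa1-6 TECs, 260520 in KYN-2 TECs and 1083 in cultured cells, led by the globin Hba-a1 in LSECs and KYN-2 TECs and by platelet factor Pf4 in the other TECs. Of the 11 measured, 10, 9 and 3 were at least 2-fold lower in the TECs and 0, 0 and 1 at least 2-fold higher, with median log2 ratios of -3.05, -2.36 and -0.73. Of 11 macrophage markers, 11 were well above background on each endothelial array and 2 in cultured cells. Their summed signal was 763311, 531263, 310528, 335629 and 1523, led by Cd5l in LSECs and by Csf1r elsewhere, and 5, 6 and 6 of them were at least 2-fold lower in the TECs and 0, 0 and 1 at least 2-fold higher. Of 12 markers of T and NK cells, 10, 11, 12, 10 and 3 were well above background, with summed signals of 10022, 8888, 38411, 11775 and 3815, and Gzma had the highest signal in Hepa1-6 TECs. Their median log2 ratios were 0.05, -0.01 and 0.32, the first of which turned to -0.01 at the 75th percentile, and 1, 2 and 1 were at least 2-fold lower and 2, 4 and 3 at least 2-fold higher. The part of these cells in the values of the transcription factors was not tested.

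Markers of cancer cells were read next. Of 10 epithelial and hepatoma markers, 8 were well above background in LSECs, 7 in HAK-1B TECs, 10 in Hepa1-6 TECs, 7 in KYN-2 TECs and 4 in cultured cells. Their summed signal was 1758, 1380, 136275, 7622 and 299302 in the same order, led by the keratin Krt18 throughout. Of the 8 markers measured, 4, 0 and 1 were at least 2-fold lower in the TECs and 3, 6 and 3 at least 2-fold higher. Their median log2 ratio was -0.77, 4.01 and 0.66 in the TECs and 1.78 in the cultured cells, and that of Hepa1-6 TECs was 2.75 with normexp. H19, an imprinted RNA of fetal liver and hepatoma, had the largest mean ratio, with a log2 signal of 5.23 in LSECs and 8.37, 8.73 and 9.71 in the TECs, and was not well above background in the cultured cells. The 4 markers that were well above background in the cultured cells, named here for that reason, were Krt18, Krt8, Afp and Gpc3. In Hepa1-6 TECs their log2 signals were 16.16, 14.13, 15.38 and 10.13, against 9.91, 8.26, 7.80 and 5.60 in LSECs and 17.59, 15.27, 15.92 and 9.52 in the cultured cells. Erg, Fli1, the SOXF genes, Tal1 and Lmo2 were not well above background in the cultured Hepa1-6 cells, and the part of cancer cell RNA in the lower values of Hepa1-6 TECs was not tested. HAK-1B and KYN-2 cells are human, and their RNA on a mouse array was not tested. Of 13 fibroblast and stellate markers measured, 2, 1 and 1 were at least 2-fold lower in the TECs and 4, 6 and 5 at least 2-fold higher. The rule of size called Col1a1 higher in each TEC. The part of fibroblasts and stellate cells in the values of the transcription factors was not tested.

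**Figure D4:**
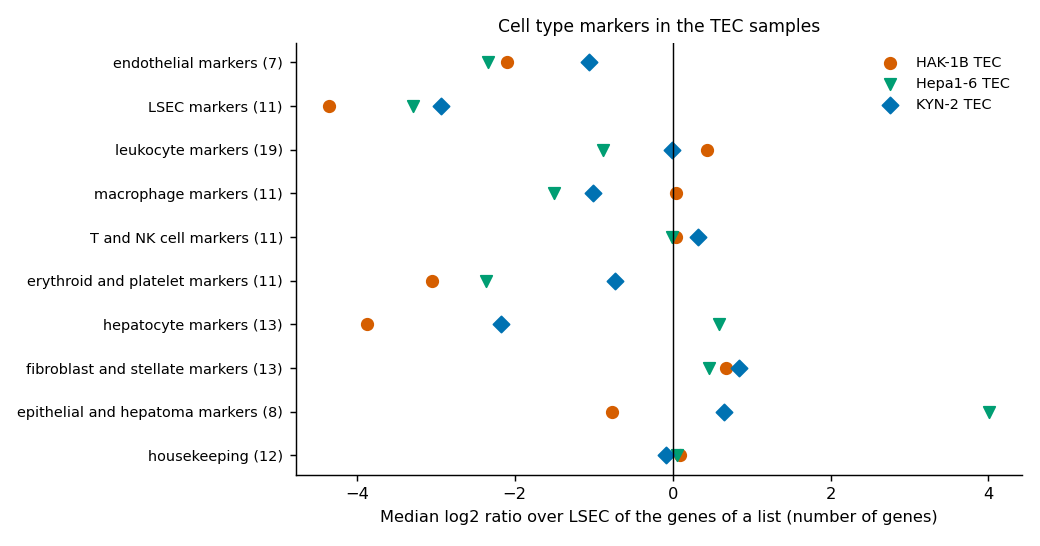
Median log2 ratio of each TEC over LSEC for marker genes of the cell types that a CD31 isolation can hold, 1 point per tumor line, with the number of genes in brackets. Endothelial markers lay at -2.10, -2.34 and -1.06, and epithelial and hepatoma markers at 4.01 in Hepa1-6 TECs.

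The LSEC sample held the markers of its label. All 11 LSEC markers on the array, which include the scavenger receptors Stab1 and Stab2 and the lectin Clec4g, were well above background in LSECs and in each TEC, with 1 in cultured cells. Their summed signal was 900010 in LSECs, 102733 in HAK-1B TECs, 95449 in Hepa1-6 TECs and 129550 in KYN-2 TECs. The rule of size called Clec4g, Oit3, Dnase1l3, Gpr182 and Wnt2 lower in each TEC. Of the 11 LSEC markers, 10, 10 and 9 were at least 2-fold lower in the TECs and 0, 0 and 1 at least 2-fold higher. The median log2 ratio of all 11, -4.36, -3.29 and -2.93, was lower than that of the 10 transcription factors in each comparison.

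Relatives of the transcription factors were then listed by family. Of 22 other ETS factors, 17 were measured in LSECs or in all TECs. Of these, 2, 6 and 2 were at least 2-fold lower in the TECs and 4, 2 and 2 were at least 2-fold higher, where a signal not well above background counted by its bound, as in the lists that follow. The median log2 ratios, from signals as measured, were 0.34, -0.43 and -0.30. Elk3, a repressor of the ternary complex group that is high in endothelium, had a log2 signal of 15.06 in LSECs and 13.43, 12.58 and 13.10 in the TECs, a mean ratio of -2.03. Etv4 was higher in TECs, at 5.91 in LSECs against 8.65, 12.93 and 9.36, and it was also high in the cultured cells, at 13.18. Spi1, the PU.1 factor of myeloid cells, had 8.20 in LSECs and 10.60, 8.77 and 9.68 in TECs. Ehf, Elf3 and Etv2, named after their values were seen, are outside these counts because they were not well above background in LSECs or in at least 1 of the TECs. In Hepa1-6 TECs they were at least 17.4-fold, 9.90-fold and 7.09-fold above LSEC, and Ehf was at least 17.9-fold above it in KYN-2 TECs.

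Of 15 other SOX factors, 8 were measured. Sox4, a factor of progenitor and tumor cells, had a log2 signal of 9.64 in LSECs, 11.97, 12.27 and 11.51 in TECs and 13.22 in cultured cells. Sox5 had a mean log2 ratio of -1.40, and Sox8, at 5.20 in LSECs, was not well above background in any TEC. Of the 8, 1, 2 and 1 were at least 2-fold lower in the TECs and 1, 2 and 3 at least 2-fold higher. The median ratios of these SOX factors were -0.01, -0.25 and 0.97, and the second turned to 0.72 at the 75th percentile. Sox9, Sox2 and Sox6 were named after their values were seen. Sox9 was at least 20.5-fold above LSEC in Hepa1-6 TECs. In KYN-2 TECs Sox2 was at least 4.99-fold and Sox6 at least 12.1-fold above LSEC, both outside these counts. Of 13 measured other KLF factors, 4, 5 and 6 were at least 2-fold lower and 2, 1 and 0 at least 2-fold higher, with median ratios of -0.31, -0.35 and -0.54. Klf15, a metabolic regulator, had the largest difference, with 10.05 in LSECs and a mean log2 ratio of -3.05 (SD 1.78). As for Klf2, HAK-1B TECs were the lowest of its TECs. Klf12 and Klf9 had mean log2 ratios of -1.46 and -1.23.

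The partners of TAL1 and LMO2 were all measured (12 of 12). Of these, 3, 5 and 3 were at least 2-fold lower and 3, 0 and 0 at least 2-fold higher in the TECs. Cbfa2t3, which encodes the corepressor ETO2, had a log2 signal of 12.36 in LSECs and 9.94, 9.56 and 9.90 in TECs, and Gata2 had 10.64 in LSECs and 9.12, 8.24 and 8.85 in TECs. Lmo1, a paralogue of Lmo2, had a LSEC signal of 4.09 that was not well above background, and 6.75, 5.63 and 5.17 in TECs. The E proteins Tcf3, Tcf4 and Tcf12 and the bridging factor Ldb1, named after their values were seen, had mean log2 ratios of 0.32, -0.50, -0.65 and -0.18. Lyl1, the paralogue of Tal1, likewise named afterwards, had 12.24 in LSECs and 14.07, 12.94 and 13.05 in TECs.

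**Figure D5:**
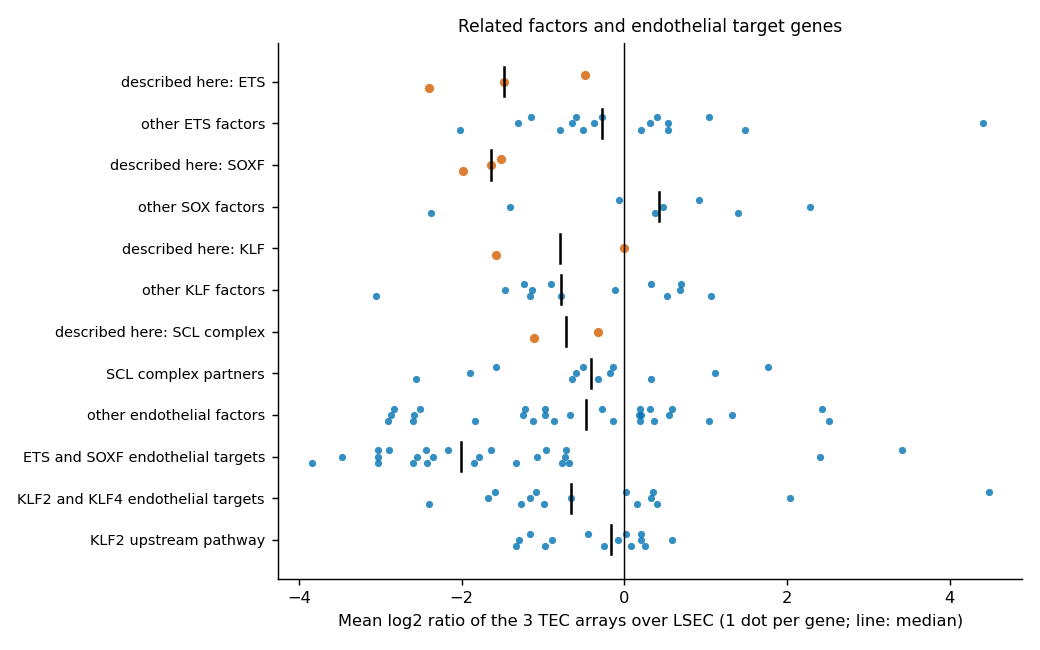
Mean log2 ratio of the 3 TEC arrays over LSEC, 1 dot per gene, for the 10 transcription factors by family (orange), their relatives, partners and endothelial target genes (blue). Black bars mark the median of each row. Erg, at -2.40, was the lowest of the orange dots, and most ETS and SOXF targets lay to the left of 0, with Tek at -3.85.

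Of 28 measured other transcription factors of endothelial cells, 11, 17 and 10 were at least 2-fold lower and 5, 4 and 6 at least 2-fold higher. The largest differences were those of Gata4, which keeps the sinusoidal type of liver endothelium, with a mean log2 ratio of -2.90, of Epas1, the hypoxia-inducible factor HIF-2α, with -2.87, and of Nr2f2, the venous factor COUP-TFII, with -2.83. Each of these was larger in size than the mean ratio of Erg, with LSEC signals of 12.35, 16.37 and 12.72 and no TEC signal above 10.03, 14.09 and 10.27.

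Endothelial genes known as targets of ETS and SOXF factors were read as a group of 24, all measured. Of these, 20, 21 and 14 were at least 2-fold lower and 2, 2 and 2 at least 2-fold higher, with median log2 ratios of -2.23, -2.38 and -1.33. Tek, the angiopoietin receptor TIE2, had a log2 signal of 12.83 in LSECs and 9.17, 8.26 and 9.53 in TECs. Kdr, the receptor VEGFR2, had 16.25 in LSECs and 12.55, 12.77 and 13.00 in TECs. Both were called lower by the rule of size in each TEC. Aplnr, the apelin receptor, had the opposite direction, not well above background in LSECs and at least 10.8-fold, 4.81-fold and 3.37-fold higher in TECs, and Cd34, named after its values were seen, had 10.60 in LSECs and 13.42, 12.14 and 13.48 in TECs. The list includes all 7 endothelial markers used above, so that it is no separate measure of the same samples.

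Targets of KLF2 and KLF4 in endothelium were measured for 15 of 16 genes. Of these, 7, 8 and 3 were at least 2-fold lower and 2, 2 and 4 at least 2-fold higher, with median log2 ratios of -0.87, -1.25 and 0.35. Nos3, the endothelial nitric oxide synthase, had a log2 signal of 13.64 in LSECs and 12.54, 11.93 and 12.98 in TECs, and Thbd, the anticoagulant thrombomodulin, had 11.99 and 11.12, 10.75 and 11.13. Both were named after their values were seen. Ephb4, a venous receptor, had 13.62 in LSECs and 10.65, 11.93 and 11.06 in TECs. Plat, the tissue plasminogen activator, was called higher in each TEC, with 5.38 in LSECs and 9.11, 10.76 and 9.70 in TECs, and it had 10.85 in the cultured cells. Palmd likewise had 8.12 in LSECs, 9.64, 11.87 and 8.94 in TECs and 12.23 in the cultured cells. The median of the list was therefore above LSEC in the KYN-2 TECs and below it in the other TECs, and this difference was not tested. The list was not sorted by whether KLF2 and KLF4 raise or lower a gene. Its median therefore gives no direction of their action.

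The pathway that induces Klf2 was measured for all 14 genes listed. Of these, 2, 5 and 2 were at least 2-fold lower and 1, 0 and 0 at least 2-fold higher. Mapk7, which encodes ERK5, had a log2 signal of 11.92 in LSECs and 11.82, 11.83 and 12.18 in TECs, and Mef2c had 10.96 and 11.96, 10.12 and 11.41. Both were named after their values were seen, for the pathway described beside the promoters. The largest differences were those of Heg1, a receptor of the cerebral cavernous malformation complex, with a mean log2 ratio of -1.33, of the kinase Map3k2, with -1.29, and of Hdac7, with -1.16.

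Immediate early genes, which are known to respond to tissue digestion and to mechanical stimuli, were read beside Klf2 and Klf4. All 18 were measured, with 17 well above background in LSECs and 18 in each TEC. Their summed signal was 658696 in LSECs, 718710 in HAK-1B TECs, 465304 in Hepa1-6 TECs, 654895 in KYN-2 TECs and 55233 in cultured cells, led by Junb, and their median log2 ratios were 0.36, 0.06 and 0.36. Fosl1 was called higher in each TEC, and as its LSEC signal was not well above background the TECs were at least 3.53-fold, 4.81-fold and 4.03-fold above them. Egr2 had a mean log2 ratio of 2.82 (SD 0.83), and Jun had 16.68 and 15.16, 15.22 and 15.32. Of the 18 immediate early genes, 2, 3 and 1 were at least 2-fold lower in the TECs and 6, 3 and 5 at least 2-fold higher. At the 75th percentile of each array the medians were 0.77, 0.40 and 0.66. The summed signal, which can rest largely on 1 gene, differed little between LSEC and KYN-2 TECs. It was lowest in Hepa1-6 TECs among the endothelial arrays. The part of these genes in the values of Klf2 and Klf4 was not tested.

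Genes whose signals had a shape most like those of a member of each family over the 5 arrays were searched among 17406 genes. Likeness was the largest difference on any array after each gene's mean log2 signal was subtracted. For Erg these were Exoc3l (0.29), Gimap4 (0.30) and Shank3 (0.33). For Sox18 they were Rhoj (0.26), a small GTPase of endothelial cells, B4galt4 (0.30) and Gimap1 (0.33). For Klf2 they were Syn1 (0.34), Prex2 (0.35) and Rasgrp2 (0.38), and for Tal1 Map3k8 (0.23), Fos (0.24) and Abcg1 (0.28). Fos, an immediate early gene, had a log2 signal of 16.40 in LSECs, 15.83, 14.98 and 15.88 in TECs and 8.27 in cultured cells. In the cultured cells the search used signals as measured, also where they were not well above background, as for Erg, Sox18 and Tal1.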

How the data were processed

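Gene expression was measured with a 60-mer mouse array of 1 colour (Cy3) in LSECs, in TECs of the HAK-1B, Hepa1-6 and KYN-2 lines, and in cultured Hepa1-6 cells, 1 array each. The authors deposited linear, background-subtracted spot intensity values with flags, as read by Agilent Feature Extraction (9.5.1.1 per the submitters' processing notes), and a table of quantile-normalized intensity with a median of 43.0 in each column. Whole scans held 0 saturated probes, and 54.1%, 57.6%, 78.1%, 54.7% and 44.6% of probes were well above background in the order above. Spots repeated on an array had a median coefficient of variation of 2.62% to 3.08%, which does not cover the spread between animals.

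Control spots were left out, repeated spots were averaged, and the log2 of the deposited processed signal was quantile normalized over the 5 arrays. Where a gene had several probes, the one with the highest mean log2 signal stood for it. For the rule of size, a probe had to be flagged present on LSEC or on the array compared with it, and 4460 lincRNA probes were left out. limma 3.58.1 in R 4.3.3 was fitted with Benjamini-Hochberg adjustment, and the rest used Python 3.11.15, numpy 2.4.6 and pandas 2.3.3. The quantile normalization, the rule of size and the limma fit were tested on simulated arrays with known changes, and the other steps were not. The 3 TEC arrays shared 1 slide and the other arrays had separate slides, so the effects of slide and of group cannot be told apart. Of the 15 probes of the transcription factors, 13 were found by accession in a RefSeq gene table, all with the same symbol.

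The transcription factors, the gene lists and the tests were chosen with earlier results of these data known. Genes were named from each list where the rule of size called them in the same direction in each TEC, and otherwise up to 3 with the largest mean ratio. Foxf1a, Fcn3 and Emr1 were listed but not found by these names. Hepatocyte markers (median log2 ratios of the TECs -3.87, 0.59 and -2.18), fibroblast and stellate markers (0.68, 0.46 and 0.84) and housekeeping genes (0.09, 0.06 and -0.08) were read as well. Alternatives were the 75th percentile, quantile normalization by pair, normexp with an offset of 50, the deposited table, the median over probes, other flag filters, no Z-score, each TEC left out, and ratios relative to the endothelial markers.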

Additional observations from a re-analysis of the deposited data

How the results depend on the processing

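The count of transcription factors called lower by the rule of size used the probes that stand for the genes and depended on the processing. It was 1 in HAK-1B TECs and 0 in Hepa1-6 and KYN-2 TECs in the main processing. In HAK-1B TECs it was 0 at the 75th percentile of each array and with quantile normalization by pair, and 3 with normexp. In Hepa1-6 TECs the Ets1 probe A_55_P2717993, which does not stand for its gene, passed in the main processing, and the count was 4 with normexp. Without the Z-score it was 7, 8 and 6, against 26.9%, 30.9% and 28.5% of all genes. The count at least 2-fold lower in KYN-2 TECs went from 4 to 2 at the 75th percentile, and that in Hepa1-6 TECs from 7 to 6 with quantile normalization by pair. For cultured Hepa1-6 cells, a filter for presence on both arrays left 1 of 7 calls and 3 of 10 genes at least 2-fold lower, because the filter removes genes not above background in these cells. The shares of all genes with that filter are not given here, so these counts cannot be set against them. The endothelial markers were a reference added after seeing the data. Relative to them, by the probes that stand for the genes, no gene was at least 2-fold lower in any TEC. At least 2-fold higher were 4 in HAK-1B and 4 in Hepa1-6 TECs. The median log2 ratios turned to 0.49, 0.60 and 0.31, while the same shift put the median of all genes at 2.09, 2.43 and 1.01. Where no cause is named here, the cause was not tested. No probe of the 15 passed an adjusted p of 0.05 in limma under any of the alternatives run, with 0 to 6 at an unadjusted p under 0.05. Leaving out each TEC in turn gave 0 probes past the adjusted threshold in each case and 0 to 3 at the unadjusted one, with 0 when HAK-1B TECs were left out. Mean log2 ratios over the 3 TECs that moved by more than their spread were those of Ets1 (-1.96) and Lmo2 (-0.56) by the median over probes, and Klf4 (0.37) and Lmo2 (-0.17) at the 75th percentile. That scaling moved the median of all genes by 0.05, 0.34 and 0.07 in the TECs, and the median of housekeeping genes in KYN-2 TECs from -0.08 to 0.40. No paired analysis was possible because no condition had a replicate. A fit with slide as a block could not be run because the groups were on separate slides. The median of hepatocyte markers in HAK-1B and KYN-2 TECs went from -3.87 and -2.18 to -2.23 and -1.10 with normexp. Folds against signals not well above background, and the 2-fold counts of the gene lists, used bounds, while the rule of size, the shares of all genes, the log2 ratios with their medians and means, and the search for like genes used these signals as measured.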
